A study of Mus musculus with 6 samples.

Results

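The genes described here encode the proteins of the mitochondrial ribosome, and they were taken by symbol: every gene named Mrpl (large subunit) or Mrps (small subunit) followed by a number. The arrays measured 77 such genes, 48 Mrpl and 29 Mrps, among 19818 genes with a row that carries exactly 1 gene symbol in the platform annotation. A row is 1 summarised signal of the array. For the 8 Mrp genes with several rows, the row brightest on average over the 6 arrays was used. 1 further row carries Mrpl53 beside another symbol and was left out.

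Mature splenic B cells of mice had been activated, spin-infected with a retrovirus, returned to mitogen for 36 hours and then kept without mitogen for 24 hours before cells positive for green fluorescent protein were sorted. The virus carried no insert beyond the fluorescent marker (EV, the empty vector control), MYD88 L265P, or IKK K171E, with 2 arrays for each of these 3 groups. MYD88 is an adaptor protein through which receptors of the Toll-like and interleukin-1 families switch on NF-kappaB, and L265P is a recurrent activating change of it in human B cell lymphomas. IKK is the kinase that releases NF-kappaB from its inhibitors, and the labels do not say which of its subunits carries K171E. All groups share the activation, the infection and the sort, so the cells model a virally delivered gene in previously activated B cells, and the labels call the 2 arrays biological replicates without saying whether they came from separate mice. P-values therefore measure the spread between these samples. Strain, age and sex of the mice are not stated in the labels.

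Markers of B cells were bright on every array, with medians over the 7 of 8 measured markers between 11.44 and 12.26 on the log2 scale. Against EV, 4 of these 7 were called lower in MYD88_L265P and 3 of 5 plasma cell markers were called higher, with a median difference of 1.26 over the plasma cell list. Of 6 monocyte and macrophage markers, Lyz2 was also bright, at 11.09 and 11.94 in EV, 12.96 and 12.89 in IKK_K171E, and 11.94 and 11.70 in MYD88_L265P. Adgre1 read 11.30 and 11.11 in EV and was lower on the other arrays. Csf1r, Itgam, Cd14 and Fcgr1 read 9.30 or less on every array. RNA came from whole sorted populations, so a change in the share of cells of a type and a change in RNA per cell cannot be told apart.

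Mitochondria keep a small genome whose messenger RNAs encode core subunits of the respiratory chain and ATP synthase, and a dedicated ribosome translates them. That ribosome is built from RNA made inside the organelle and from proteins encoded in the nucleus, translated in the cytosol and imported. Some of these proteins descend from those of the bacterial ribosome, while others were added in the mitochondrial lineage. Activated B cells are known to enlarge their mitochondria and their oxidative metabolism as they grow and divide.

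Mitochondrial ribosomal protein transcripts were more abundant in cells with MYD88 L265P than in cells with the empty vector. 37 of the 77 genes rose and 0 fell at an adjusted p below 0.05 (limma over all rows, Benjamini-Hochberg), whereas over all genes 9.02% were called higher and 7.44% lower. The median log2 fold change of the 77 genes was 0.46, beside -0.12 for all genes, and single genes ranged from -0.44 for Mrpl48 to 1.14 for Mrps28. Both MYD88_L265P arrays lay above both EV arrays in 69 of the 77 genes, against 22.8% of all genes. At an unadjusted p below 0.05, 56 members were higher (72.7%, against 15.4% of all genes) and 1 was lower (1.3%, against 23.4%). The count of called members depended on single arrays: leaving out EV replicate 1 gave 34, leaving out EV replicate 2 gave 13, leaving out MYD88_L265P replicate 1 gave 2 (Mrpl57 and Mrps21), and leaving out MYD88_L265P replicate 2 gave 0. In the same fits the share of all rows called went from 16.6% to 14.1%, 6.13%, 1.93% and 0.887%.

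**Figure D1:**
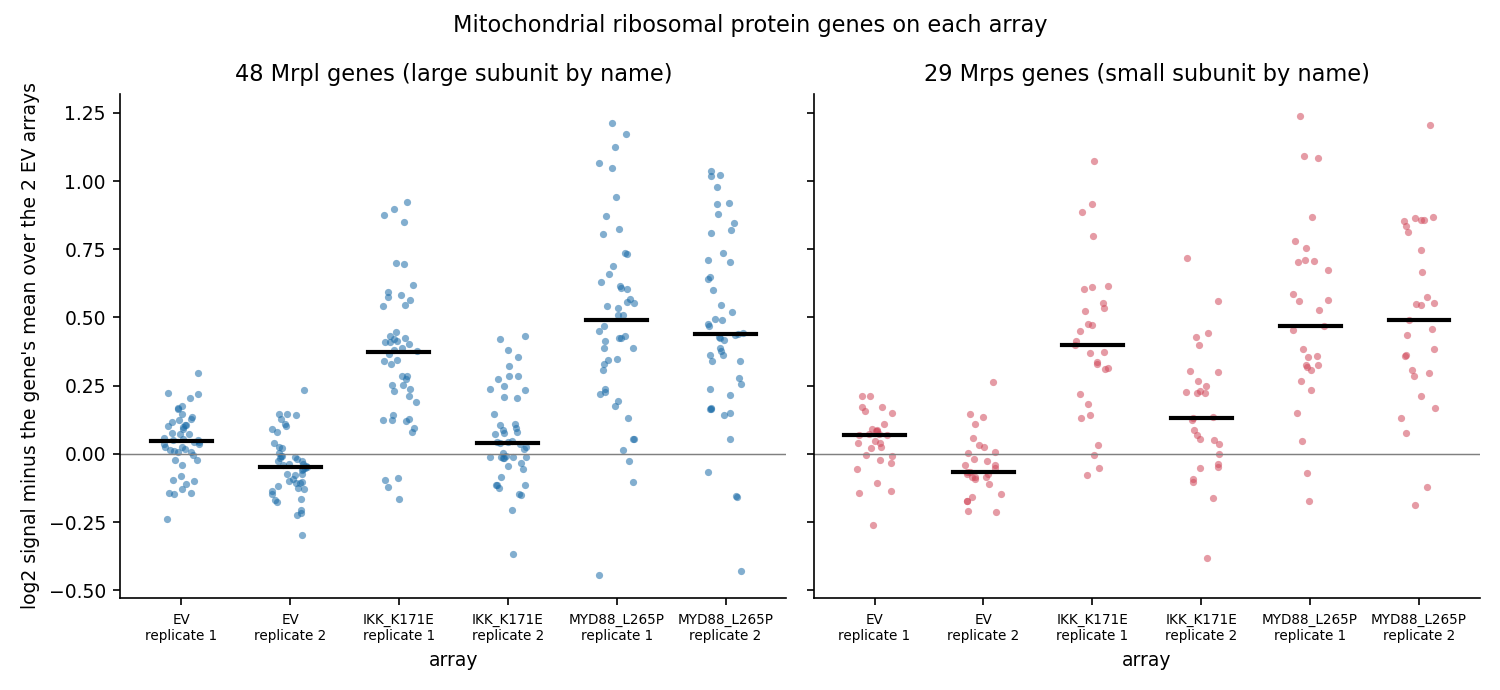
Each point is 1 Mrp gene on 1 array, plotted as its log2 signal minus that gene's mean over the 2 EV arrays, with black bars at the median of the 48 Mrpl genes (left) or the 29 Mrps genes (right). The medians of both MYD88_L265P arrays lie between 0.44 and 0.49, whereas the 2 IKK_K171E arrays differ, at 0.37 and 0.04 for Mrpl genes and 0.40 and 0.13 for Mrps genes.

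Among genes of the large subunit, Mrpl42, a protein specific to mitochondria, had the largest increase. Its log2 signal was 9.74 and 9.39 on the EV arrays, 10.44 and 9.94 on the IKK_K171E arrays, and 10.77 and 10.58 on the MYD88_L265P arrays. The MYD88_L265P arrays were above all others and did not overlap them, and the log2 fold change against EV was 1.11 (SE 0.19, adjusted p = 0.0129, limma with Benjamini-Hochberg). Mrpl13, the counterpart of bacterial ribosomal protein L13, read 9.65 and 9.06 in EV, 10.21 and 9.71 in IKK_K171E, and 10.53 and 10.38 in MYD88_L265P. It too was highest on both MYD88_L265P arrays, although EV replicate 1 stood close to IKK_K171E replicate 2, and it rose by 1.10 (SE 0.22, adjusted p = 0.0215, limma). Mrpl50, another mitochondria-specific protein, read 9.28 and 8.84 in EV, 9.98 and 9.34 in IKK_K171E, and 10.18 and 9.98 in MYD88_L265P. Here the lower MYD88_L265P array met the higher IKK_K171E array, while both stayed above EV, and the increase over EV was 1.02 (SE 0.23, adjusted p = 0.0271, limma).

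Mrpl22 belongs to the proteins that line the tunnel through which the nascent chain leaves the ribosome. Its signal was 7.97 and 8.26 in EV, 8.66 and 8.43 in IKK_K171E, and 9.16 and 9.03 in MYD88_L265P, so the 3 groups followed each other without overlap. The increase over EV was 0.98 (SE 0.13, adjusted p = 0.00761, limma). Mrpl47, the counterpart of bacterial L29 near the tunnel exit, gave an answer that depended on the row: the brighter row rose by 1.05 (SE 0.19, adjusted p = 0.0159, limma), and the other row gave 0.03 (adjusted p = 0.861). The labels do not say what the probes of each row cover, so the Mrpl47 increase holds for 1 of its 2 rows. Mrpl1, whose bacterial counterpart forms the mobile stalk beside the exit site for transfer RNA, rose by 0.96, and Mrpl57, a small protein found only in mitochondria, by 0.75.

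Among genes of the small subunit, Mrps28 had the largest increase of all 77 members. It read 8.48 and 8.44 in EV, 9.38 and 8.86 in IKK_K171E, and 9.54 and 9.67 in MYD88_L265P. The EV arrays were nearly equal and lay below every other array, and the log2 fold change was 1.14 (SE 0.16, adjusted p = 0.00845, limma), a 2.21-fold difference. Mrps22, a mitochondria-specific protein whose loss causes a defect of oxidative phosphorylation in people, read 9.66 and 9.32 in EV, 10.57 and 10.21 in IKK_K171E, and 10.73 and 10.35 in MYD88_L265P. Both transduced genes gave readings above EV, their ranges overlapped each other, and the increase of MYD88_L265P over EV was 1.05 (SE 0.18, adjusted p = 0.0149, limma).

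Mrps21 was the member with the lowest adjusted p. Its signal was 10.00 and 10.11 in EV, 10.61 and 10.49 in IKK_K171E, and 10.92 and 10.92 in MYD88_L265P, 3 separate pairs with little spread within each. It rose by 0.87 (SE 0.092, adjusted p = 0.0044, limma) in MYD88_L265P against EV.

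The family of 3 genes named Mrps18 descends from a single bacterial protein and occupies different places in the ribosome. Mrps18c, the counterpart at the original site, rose by 0.97 (SE 0.16, adjusted p = 0.0127, limma) from 9.80 and 9.46 in EV to 10.73 and 10.49 in MYD88_L265P. Mrps18b, a separate small subunit protein, rose by 0.78 (SE 0.19, adjusted p = 0.0323) from 8.82 and 9.11 to 9.72 and 9.78. Mrps18a, which sits in the large subunit despite its name, rose by 0.77 (SE 0.14, adjusted p = 0.0153) from 8.80 and 8.87 to 9.54 and 9.67. All 3 were called, with no overlap between the MYD88_L265P and EV arrays. Mrps30, also a large subunit protein by structure, rose by 0.51 (SE 0.098, adjusted p = 0.0185). Mrps36, since recognised as a subunit of the 2-oxoglutarate dehydrogenase complex and not of the ribosome, rose by 0.57 (SE 0.14, adjusted p = 0.0375), and both of its rows were called.

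**Figure D2:**
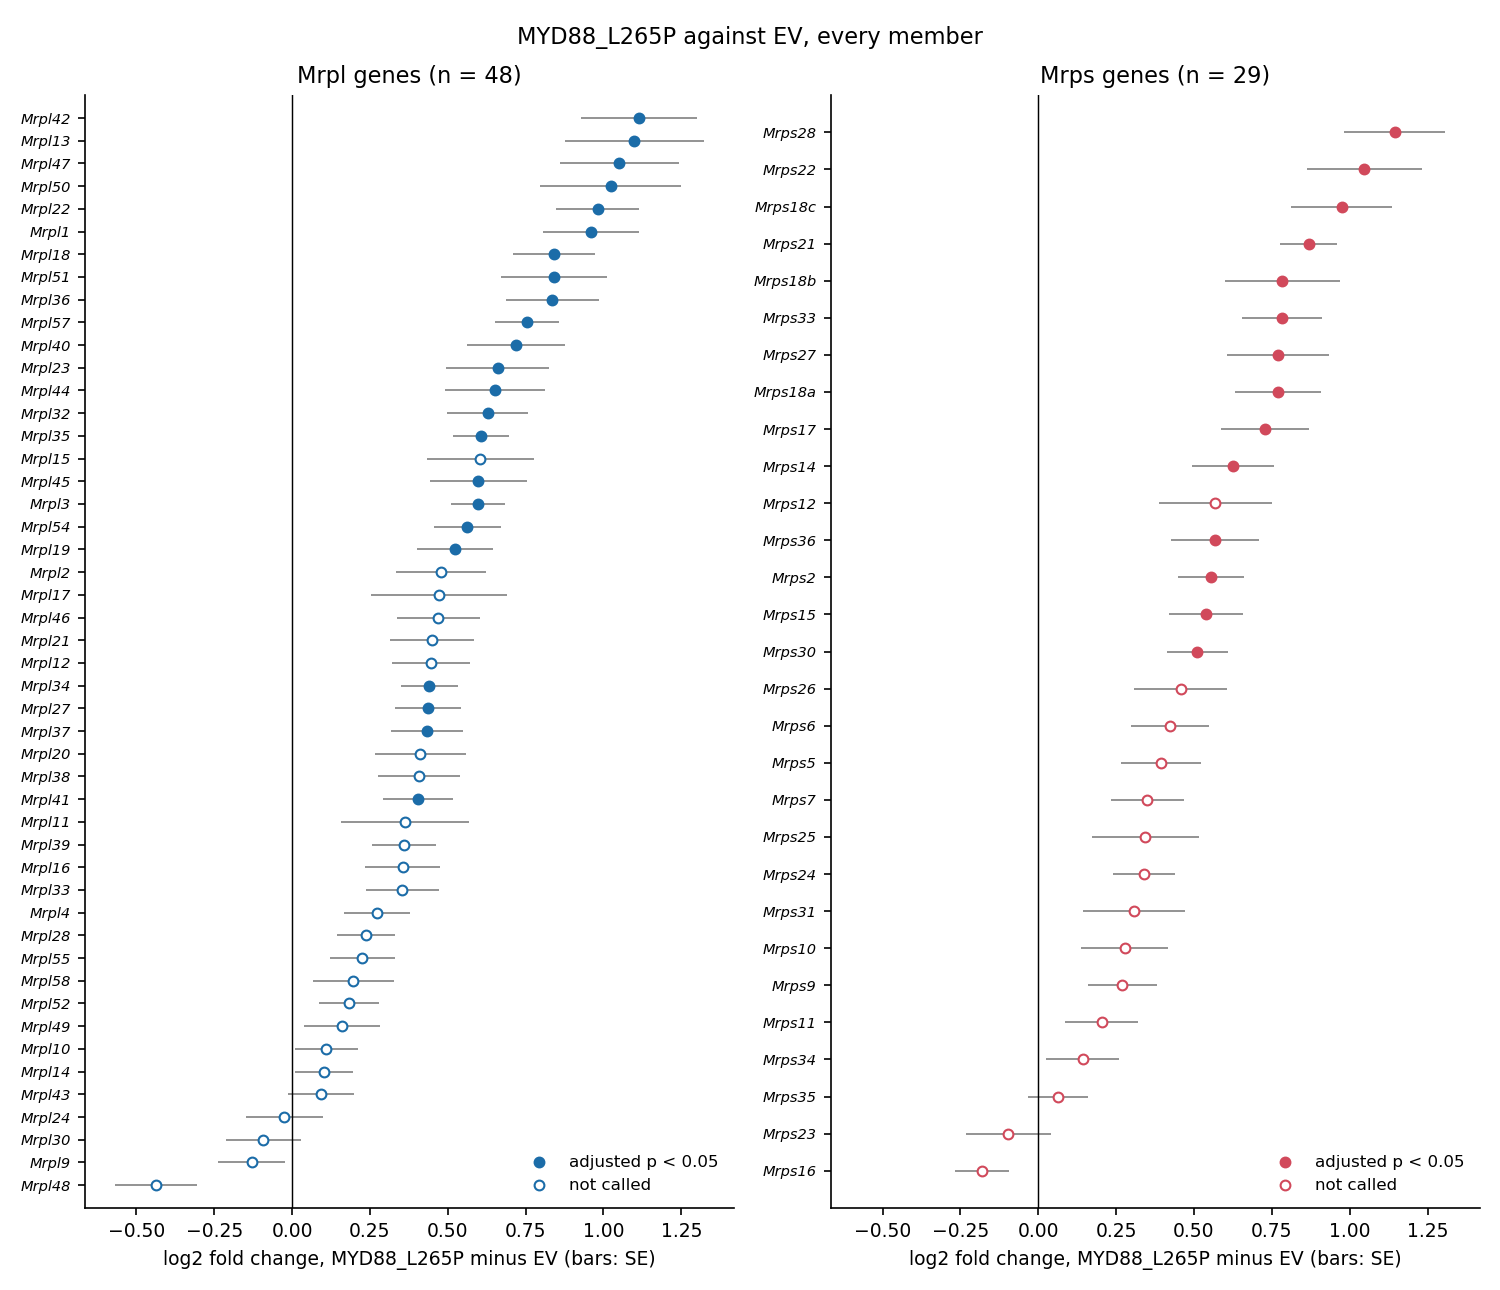
Log2 fold change of MYD88_L265P against EV for each of the 48 Mrpl genes (left) and 29 Mrps genes (right), with bars of 1 standard error and filled points for genes called at an adjusted p below 0.05. Called genes number 23 and 14, the lowest points are Mrpl48 at -0.44 and Mrps16 at -0.18, and uncalled genes lie mostly above 0.

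In all, 6 members differed by at least 2-fold between MYD88_L265P and EV: Mrps28, Mrpl42, Mrpl13, Mrpl47, Mrps22 and Mrpl50. The other called genes ranged downward to Mrpl41 at 0.41 (adjusted p = 0.0497), whose second row gave 0.16 (adjusted p = 0.248, limma). Mrpl51 rose by 0.84 on its brighter row and read 0.48 on the other (adjusted p = 0.0758), whereas Mrps5 was called only on its dimmer row, at 0.51 (adjusted p = 0.0341) against 0.40 (adjusted p = 0.0736). The rows of Mrpl23, Mrpl27, Mrps33 and Mrps36 were called alike. Of the 40 genes that were not called, 34 had a fold change above 0. Mrpl15 stood just outside the threshold with 0.60 (adjusted p = 0.0539) and Mrpl46 with 0.47 (adjusted p = 0.0517).

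Values below 0 were found for 6 members: Mrpl48, Mrps16, Mrpl9, Mrps23, Mrpl30 and Mrpl24. Mrpl48 read 9.70 and 9.99 in EV, 9.75 and 9.48 in IKK_K171E, and 9.40 and 9.42 in MYD88_L265P. Both MYD88_L265P arrays were below all others, yet the difference of -0.44 did not pass the threshold (SE 0.13, adjusted p = 0.0629, limma). Mrps16, the counterpart of bacterial S16, read 9.70 and 9.75 in EV and 9.55 and 9.54 in MYD88_L265P, a difference of -0.18 (adjusted p = 0.167) with no overlap. The remaining 4 had overlapping groups. Among them Mrpl24 was closest to 0, at -0.03 with a 95% interval from -0.32 to 0.26.

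The large and small subunits were compared next. 23 of 48 Mrpl genes and 14 of 29 Mrps genes rose in MYD88_L265P, or 47.9% and 48.3%. Their median fold changes were 0.45 and 0.51, a difference of -0.062 (large minus small). With Mrps30 and Mrps18a counted as large and Mrps36 left out, as the structure of the mammalian ribosome has it, 25 of 50 large and 11 of 26 small subunit genes were called, and the difference turned to 0.020. The sign thus followed the assignment of 3 genes. Between IKK_K171E and EV the difference by name was -0.046, and between MYD88_L265P and IKK_K171E it was 0.040. A related measure on each array was the Mrpl median minus the Mrps median of signals centred on each gene's mean. It gave 0.0 and 0.076 in EV, -0.021 and -0.092 in IKK_K171E, and 0.037 and -0.002 in MYD88_L265P. Its spread between replicate arrays was 0.045 (SD), and -0.046 and 0.040 were about that size.

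Members were also split by whether they are the direct counterpart of a bacterial protein, a class that holds Mrps18c but not its relatives Mrps18a and Mrps18b. Of the Mrpl genes with a bacterial counterpart, 13 of 30 rose, with a median of 0.45, and of the mitochondria-specific Mrpl genes 10 of 18 rose, with a median of 0.45. For Mrps genes the counts were 7 of 16 (median 0.48) and 6 of 12 (median 0.48). These counts are descriptions, and no test was made between classes.

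In IKK K171E against EV, the median difference of the members was 0.23, and none passed the threshold in the fit without a replicate block. The limma fit called 0 of 77 higher and 0 lower, against 0.974% and 0.434% of all genes, and at an unadjusted p below 0.05 it gave 22 higher and 0 lower, or 28.6% of members against 8.80% of all genes higher. The median over all genes was -0.04. Both IKK_K171E arrays lay above both EV arrays in 35 members, against 17.5% of all genes. In the small subunit, Mrps22 had the largest difference, 0.90 (95% interval 0.46 to 1.33, adjusted p = 0.0692, limma), followed by Mrps18c with 0.72 (0.34 to 1.10, adjusted p = 0.0847). Mrpl47 with 0.66 (0.21 to 1.11, adjusted p = 0.141) and Mrpl42 with 0.63 (0.19 to 1.07, adjusted p = 0.150) led the large subunit.

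The 2 IKK_K171E arrays differed from each other across the members. Replicate 1 read higher than replicate 2 in 72 of 77 genes (93.5%), by a median of 0.27, whereas over all genes it was higher in 47.5%. The EV replicates differed less, with replicate 1 higher in 55 members by a median of 0.10, and the MYD88_L265P replicates were even, with replicate 1 higher in 38. Mrpl17 shows the pattern: it read 9.11 and 9.02 in EV, 9.77 on IKK_K171E replicate 1 and 9.05 on replicate 2, and 9.67 and 9.40 in MYD88_L265P. Mrps31 read 10.28 and 10.20 in EV, 10.61 and 10.08 in IKK_K171E, and 10.55 on both MYD88_L265P arrays. In both genes the first IKK_K171E array stood above the MYD88_L265P arrays, while the second lay within the EV range for Mrpl17 and below it for Mrps31. Not all members behaved so, since Mrpl3 read 9.50 and 9.53 in IKK_K171E, clear of 9.11 and 9.09 in EV.

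**Figure D3:**
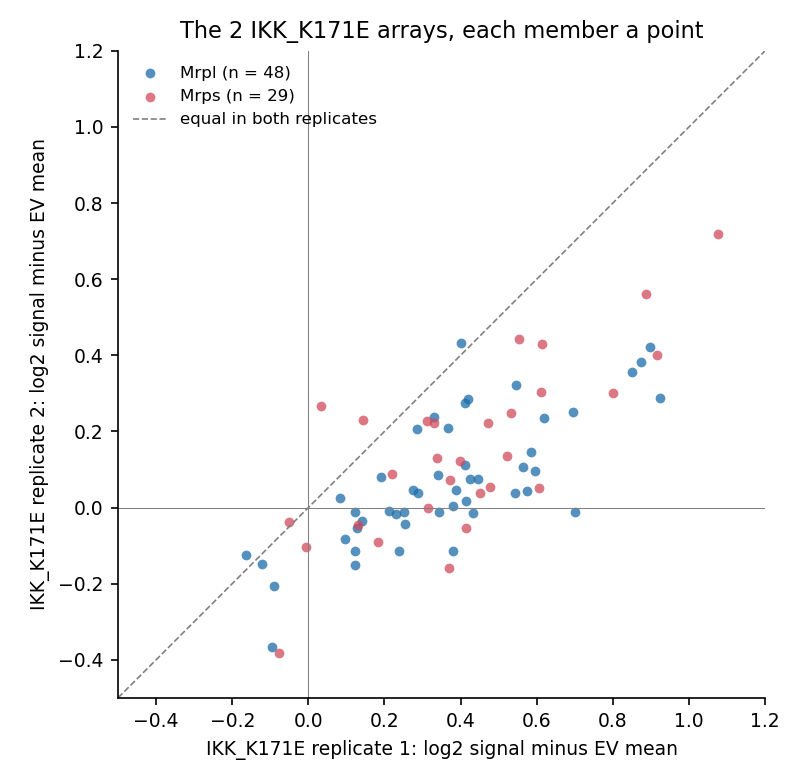
Each Mrp gene is a point, with its log2 signal minus the EV mean on IKK_K171E replicate 1 (horizontal) and on replicate 2 (vertical), and the dashed line marks equal readings. 72 of the 77 points lie below the line, so replicate 1 read higher for nearly all members of both subunits.

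The median difference of the members from EV was 0.38 with IKK_K171E replicate 1 alone and 0.07 with replicate 2 alone. With replicate 2 left out, 3 members were called higher than EV (Mrpl18, Mrps27 and Mrps28), and with replicate 1 left out 0 were. Over all rows the same fits called 2.27% and 0%, so the latter fit made no call anywhere. Genes of the respiratory chain and ATP synthase differed between these arrays in the same direction, with replicate 1 higher in 83.3% of them by a median of 0.21, and genes of the cytosolic ribosome did so in 57.6%, by 0.03. Plasma cell markers also read higher on IKK_K171E replicate 1: Jchain, a component of secreted antibody polymers, was 10.16 against 8.18, and Prdm1, the regulator of plasma cell differentiation, was 8.65 against 7.96. The list's median over 5 markers was 9.41 and 8.18. Monocyte and macrophage markers had a median of 9.17 and 8.87 on the IKK_K171E arrays and 8.12 to 8.50 on the others, with 1 of 6 called higher and 1 lower against EV. The markers' part in the Mrp values was not tested.

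MYD88_L265P was also set against IKK_K171E directly. 1 of 77 members was called higher and 0 lower (limma, Benjamini-Hochberg), against 0.903% higher and 0.903% lower over all genes, and at an unadjusted p below 0.05, 21 were higher (27.3%, against 8.15% of all genes) and 0 lower (against 11.5%). The median difference was 0.23 beside -0.06 for all genes, and both MYD88_L265P arrays exceeded both IKK_K171E arrays in 49 members, against 20.5% of all genes. The called gene was Mrpl57, which read 8.62 and 8.44 in IKK_K171E and 9.16 and 9.30 in MYD88_L265P. Its EV arrays, at 8.52 and 8.44, overlapped those of IKK_K171E. The difference was 0.70 against IKK_K171E (SE 0.10, adjusted p = 0.0254, limma), and IKK_K171E against EV gave 0.05 (95% interval -0.19 to 0.29, adjusted p = 0.842). The Mrpl57 call was lost without either IKK_K171E array or either MYD88_L265P array. Mrpl1 had a similar size of difference, 0.70, which was not called (adjusted p = 0.083). Among small subunit genes, Mrps28 with 0.49 (95% interval 0.10 to 0.87, adjusted p = 0.184) and Mrps17 with 0.48 (0.15 to 0.82, adjusted p = 0.150) differed most, without passing the threshold. Mrps22 differed by 0.15 (-0.28 to 0.58, adjusted p = 0.650), and its 2 pairs of arrays overlapped. Both sets of differences from EV use the same EV arrays, and this set reuses the arrays of the others.

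Plasma cell markers rose with the Mrp genes in MYD88_L265P. Prdm1 read 7.92 and 8.13 in EV, 8.65 and 7.96 in IKK_K171E, and 10.65 and 10.34 in MYD88_L265P, and Xbp1, which drives expansion of the secretory apparatus, read 9.19 and 9.06, then 9.41 and 8.95, then 10.49 and 10.27. Sdc1, the surface marker of mature plasma cells, read 7.81 and 7.86 in EV and 7.85 and 7.58 in MYD88_L265P and was not called. The list's array medians were 8.86 and 9.06 in EV, 9.41 and 8.18 in IKK_K171E, and 10.65 and 10.30 in MYD88_L265P. T cell markers fell in 3 of 5 cases in MYD88_L265P. The part of any of these in the Mrp differences was not tested.

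A list of 5 measured genes held proteins of the same ribosome under other names and its membrane partner Oxa1l, and 2 rose in MYD88_L265P while 1 fell. The 2 that rose are ribosomal proteins, and the 1 that fell is Oxa1l. Ptcd3, a small subunit protein with RNA-binding repeats, read 9.56 and 9.21 in EV and 10.35 and 10.44 in MYD88_L265P, an increase of 1.01 (SE 0.19, adjusted p = 0.0166, limma). Chchd1, another small subunit protein, rose by 0.91 (SE 0.15, adjusted p = 0.0135), from 8.53 and 8.37 to 9.51 and 9.21. Oxa1l, the inner membrane insertase on which the ribosome docks, fell by 0.47 (SE 0.085, adjusted p = 0.0156), from 10.50 on both EV arrays to 10.07 and 9.99. Dap3 and Gadd45gip1, both ribosomal proteins, gave 0.31 and 0.39 and were not called.

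Lists of factors that act with the ribosome had shares called higher near the 9.02% of all genes: 8.33% of translation factors, 10.7% of assembly and RNA modification genes, and 10.5% of aminoacyl-tRNA synthetases. Other measures lay further from all genes. Both MYD88_L265P arrays lay above both EV arrays in 75%, 39.3% and 36.8% of these lists, against 22.8% of all genes. At an unadjusted p below 0.05 (limma), 25%, 25% and 26.3% were higher, against 15.4%. Of 12 translation factors, 1 rose: Gfm1, the elongation factor that moves the ribosome along the message, by 0.90 (SE 0.16, adjusted p = 0.0149, limma). The median of this list was 0.14, and Tufm, which delivers aminoacyl-tRNA, gave 0.39 (adjusted p = 0.149). Of 28 genes for assembly of the ribosome and modification of its RNA, 3 rose and the median was 0.10. They were Tfb1m, which methylates the small subunit RNA (1.18, SE 0.29, adjusted p = 0.0369), Fastkd2, which acts in RNA granules on the large subunit (0.90, SE 0.12, adjusted p = 0.0077), and Grsf1, an RNA-binding protein of those granules (0.41, SE 0.092, adjusted p = 0.0274). The EV arrays of Tfb1m were far apart, at 9.15 and 8.19, against 9.96 and 9.73 in MYD88_L265P. Of 19 mitochondrial aminoacyl-tRNA synthetases, 2 rose, Yars2 by 1.40 and Nars2 by 0.66, and the median was -0.01.

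Other groups of nuclear genes for mitochondria had medians close to that of the Mrp genes. Of 33 genes for protein import, 14 rose and 0 fell, with a median of 0.42, led by Timm8a1, a chaperone of the intermembrane space, with 1.71 (adjusted p = 0.00483, limma) and Hspa9, the matrix chaperone that pulls in precursors, with 0.99 (adjusted p = 0.0179). Of 78 genes of the respiratory chain and ATP synthase, 33 rose and 0 fell, with a median of 0.43, led by Ndufa1 of complex I with 1.21 and Atp5md of the ATP synthase with 1.13. Of 16 genes for mitochondrial transcription and messenger stability, 4 rose and the median was 0.46. Lrpprc, which stabilises mitochondrial messengers, rose by 0.68 and Tfam, which packages the genome, by 0.59.

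Genes for proteins of the cytosolic ribosome, which translates all nuclear messages, were read on the same arrays. Of 59 measured, 2 rose and 0 fell in MYD88_L265P against EV, and their median was -0.12, beside -0.12 for all genes. At an unadjusted p below 0.05, 2 were higher (3.39%, against 15.4% of all genes) and 10 lower (16.9%, against 23.4%). The called genes were Rps27l, a p53-responsive variant of a small subunit protein, with 1.44 (SE 0.21, adjusted p = 0.00865, limma), and Rpl14 with 0.65 (SE 0.15, adjusted p = 0.0321).

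**Figure D4:**
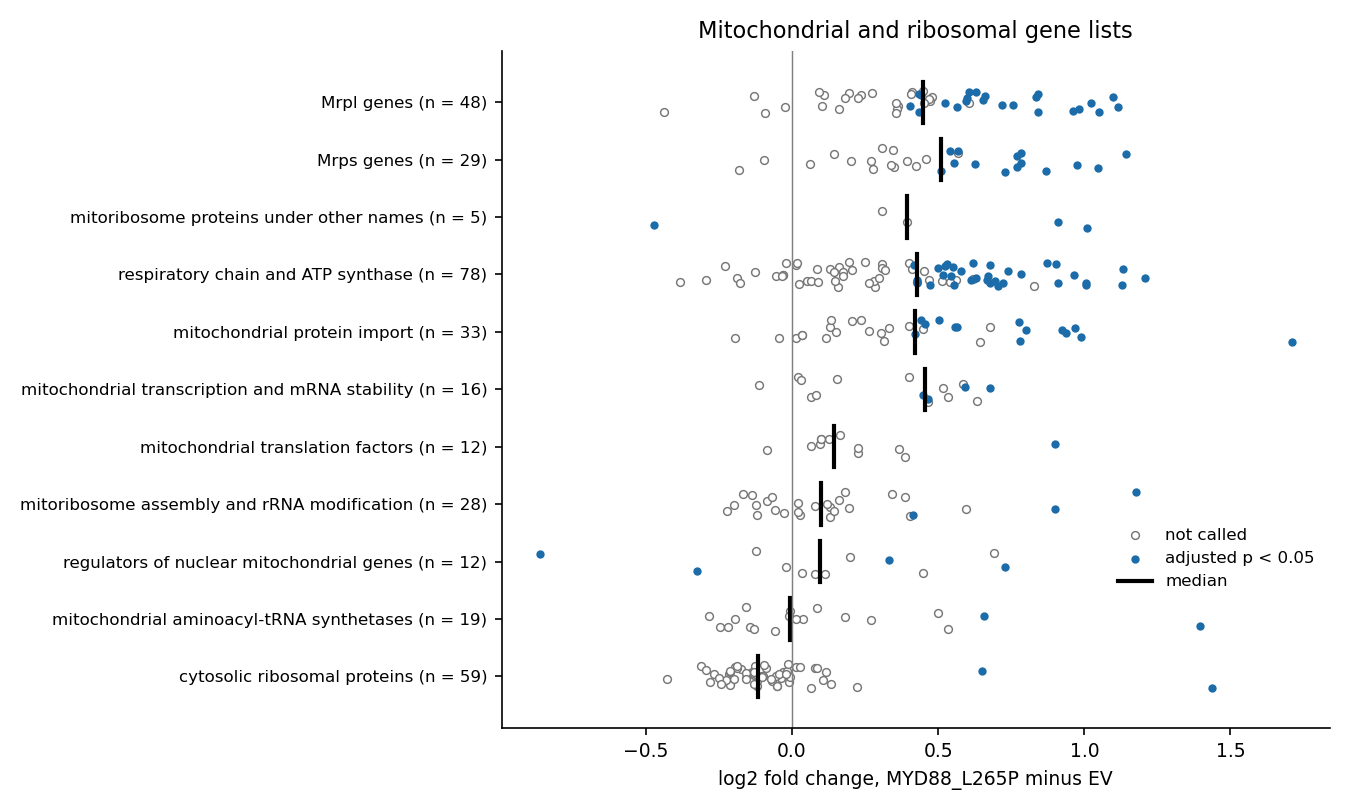
Log2 fold change of MYD88_L265P against EV for every measured gene of 11 gene groups, with filled points for genes called at an adjusted p below 0.05 and black bars at the group medians. Medians of the Mrpl, Mrps, respiratory chain, import and transcription groups lie between 0.42 and 0.51, and that of the cytosolic ribosomal proteins at -0.12.

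The same lists gave few calls in the other comparisons, in which few of all genes were called. In IKK_K171E against EV, 0.974% of all genes were called higher and 0.434% lower. Import genes (3.03%), synthetases (5.26%), assembly genes (3.57%) and the respiratory chain list (1.28%) each had 1 gene called higher. The other lists had none. Against EV, IKK_K171E had higher Timm8a1 (1.23, SE 0.19, adjusted p = 0.0383, limma), Yars2 (1.16, SE 0.14, adjusted p = 0.0209), Fastkd2 (0.70, SE 0.12, adjusted p = 0.0488) and Ndufa4 (0.67, SE 0.10, adjusted p = 0.0399). Against the same EV arrays, MYD88_L265P gave 1.71, 1.40, 0.90 and 1.00 for these genes. Ndufa1 was called in MYD88_L265P against IKK_K171E, at 0.74 (SE 0.10, adjusted p = 0.0238, limma). It makes up 1.28% of its list, against 0.903% of all genes called higher in that comparison.

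Known regulators of nuclear genes for mitochondria moved in both directions in MYD88_L265P against EV. Of 12 measured, 2 rose and 2 fell, or 16.7% each way, against 9.02% higher and 7.44% lower over all genes. Pprc1, a coactivator of the PGC-1 family that responds to growth signals, read 7.88 and 7.97 in EV and 8.67 and 8.64 in MYD88_L265P, an increase of 0.73 (SE 0.13, adjusted p = 0.0147, limma). Gabpa, the DNA-binding subunit of the ETS-family factor GABP, rose by 0.33 (SE 0.090, adjusted p = 0.0465). Ppargc1a, the coactivator PGC-1alpha, fell by 0.86 (SE 0.15, adjusted p = 0.015), from 8.57 and 8.61 to 7.95 and 7.50, and Mycn fell by 0.32 (SE 0.085, adjusted p = 0.0434). Myc, which drives cell growth, read 11.28 and 10.48 in EV, 11.50 and 11.16 in IKK_K171E, and 11.56 and 11.59 in MYD88_L265P, a difference of 0.69 that was not called (adjusted p = 0.0881). As with the Mrp medians, Myc was lowest on EV replicate 2 and higher on the first than on the second IKK_K171E array. Gabpb1 and Yy1 shared both features, which were chosen after the values were seen, and the other regulators of the list did not. Against EV in MYD88_L265P, Gabpb1 gave 0.45 (adjusted p = 0.0599, limma) and Yy1 0.11 (adjusted p = 0.426), neither called. The part of any regulator in the Mrp differences was not tested. Nrf1, a factor named for its sites in respiratory genes, gave 0.20 (adjusted p = 0.139).

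Promoters of the members were then read from RefSeq (build GRCm38.p6), which gave windows of 300 bases, 250 before and 50 after the annotated start, for 68 of the 77 genes, 42 large and 26 small subunit. The sequences below are shown because these genes rose in MYD88_L265P and because they contrast promoters with and without the letters CCGGAAG, the core that ETS-family factors such as GABP recognise. Each is the stretch just before the start, 5′ to 3′ on the gene's strand. Capitals mark CCGGAAG or its reverse complement and, in Mrpl22 only, the letters GCATGCGC of the NRF1 site on the opposite strand. Mrpl22 lies at chr11:58171564-58171663 (plus strand), Mrpl3 at chr9:105053168-105053267 (plus), Mrps22 at chr9:98601680-98601779 (minus), Mrps18a at chr17:46110904-46111003 (plus) and Mrps27 at chr13:99344686-99344785 (plus). Mrpl42 at chr10:95501950-95502049 (minus) and Mrpl1 at chr5:96210015-96210114 (plus) hold neither.
Mrpl22: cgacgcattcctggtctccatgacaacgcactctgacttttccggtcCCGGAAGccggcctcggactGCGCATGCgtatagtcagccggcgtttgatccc
Mrpl3: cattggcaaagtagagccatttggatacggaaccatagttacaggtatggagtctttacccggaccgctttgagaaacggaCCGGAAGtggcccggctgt
Mrps22: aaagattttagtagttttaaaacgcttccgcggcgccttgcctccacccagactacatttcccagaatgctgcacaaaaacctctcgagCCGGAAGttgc
Mrps18a: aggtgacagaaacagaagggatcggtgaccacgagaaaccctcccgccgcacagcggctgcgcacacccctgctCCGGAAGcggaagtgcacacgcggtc
Mrps27: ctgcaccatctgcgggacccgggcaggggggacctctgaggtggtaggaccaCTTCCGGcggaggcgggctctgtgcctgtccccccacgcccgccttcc
Mrpl42: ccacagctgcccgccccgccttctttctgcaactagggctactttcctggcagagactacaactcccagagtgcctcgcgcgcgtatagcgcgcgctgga
Mrpl1: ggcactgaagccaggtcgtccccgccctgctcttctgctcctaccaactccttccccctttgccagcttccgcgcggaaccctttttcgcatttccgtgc

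In Mrps22 the match ended 5 bases before the start and in Mrpl3 13 bases, whereas in Mrpl22 it ended 47 bases before it. A match in the 100 bases before the start was found in 14 members, of which 8 were called higher in MYD88_L265P: Mrpl22, Mrpl27, Mrpl3, Mrpl34, Mrpl51, Mrps18a, Mrps22 and Mrps27. Of all 77 members, 48.1% were called higher. Mrpl48 and Mrps16, whose values were the lowest of their subunits, also hold a match there. The share of all genes with a match in these 100 bases was not computed. Over the whole window, CCGGAAG on either strand was present in 25 of 68 members (36.8%), 14 large and 11 small. It was present in 9.93% of all 27025 genes with a window and in 12.9% of the protein-coding ones. Of the 25 members with the letters 14 were called, with a median fold change of 0.57, and of the 43 without 19 were called, with a median of 0.42. Presence of these letters is a description of the sequence and not a sign that a factor binds.

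The other motifs were searched on both strands too, with overlaps between motifs allowed. GCATGCGC was present in 8 members (11.8%, against 3.05% of all and 3.93% of protein-coding genes with a window), and AAGATGG, the letters of the YY1 site, in 13 (19.1%, against 7.28% and 7.18%). CACGTG, the E-box bound by MYC with MAX, was present in 5 (7.35%, against 8.09% and 8.91%). Members with and without the NRF1 letters had median fold changes of 0.42 and 0.45, and 3 of the 8 with them were called. For the YY1 letters the medians were 0.57 and 0.45, with 7 of 13 called. The median of 0.57 equals that of members with CCGGAAG. For CACGTG the medians were 0.48 and 0.45, with 3 of 5 called. Differences between members with and without a motif were not tested. The windows were of similar base composition, with a median GC content of 58.5% in members and 56.3% in protein-coding genes.

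**Figure D5:**
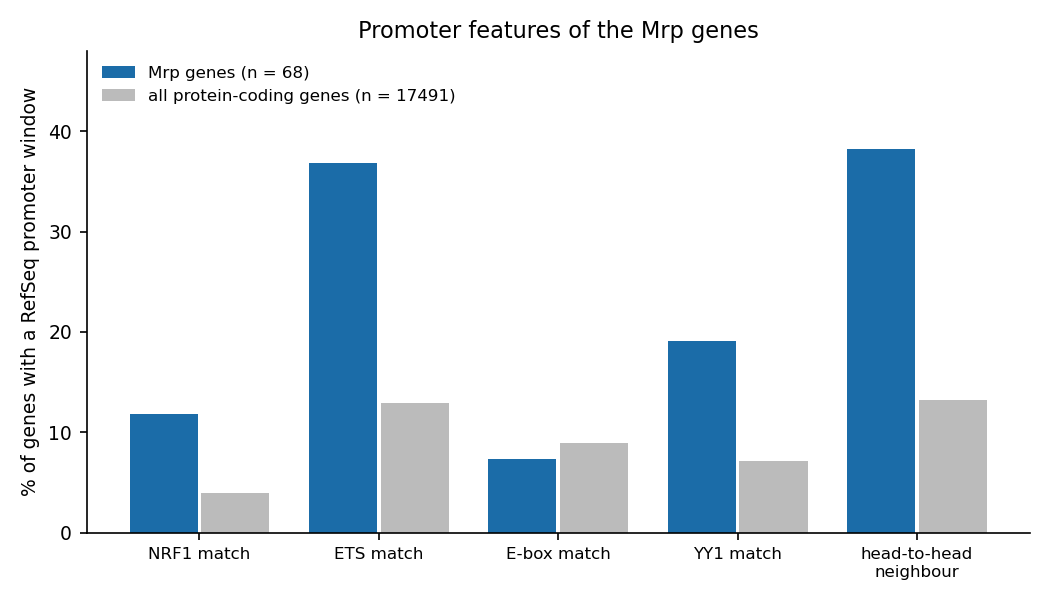
Share of genes (percent) with a promoter window that holds each motif on either strand, and share of genes with a head-to-head neighbour whose start lies within 1000 bases, for the 68 Mrp genes with a window (blue) and 17491 protein-coding genes (grey). The ETS letters and head-to-head neighbours were found in 36.8% and 38.2% of members, against 12.9% and 13.2%.

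For many members, another gene starts close by on the opposite strand. A head-to-head neighbour, with starts at most 1000 bases apart, was found for 26 of 68 members (38.2%), against 12.3% of all genes and 13.2% of protein-coding genes. Mrpl46 and Mrps11, 1 gene of each subunit, start 42 bases apart on chromosome 7, and Mrpl57 starts 76 bases from Ska3, a gene of the kinetochore that holds chromosomes to the spindle. The bases between these pairs, at chr7:78783090-78783130 and chr14:57826164-57826238 (both plus strand), are printed because each lies before the starts of both genes.
Mrpl46 and Mrps11: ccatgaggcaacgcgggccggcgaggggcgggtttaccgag
Mrpl57 and Ska3: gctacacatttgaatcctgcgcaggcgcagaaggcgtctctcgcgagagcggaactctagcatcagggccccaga

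Values of such pairs were alike in some cases and not in others. Mrpl46 gave 0.47 and Mrps11 0.20 in MYD88_L265P against EV, neither called. Mrpl57 rose by 0.75 and Ska3 by 1.498 (SE 0.33, adjusted p = 0.0272, limma). Mrps27 and Ptcd2, a gene for mitochondrial RNA handling, rose by 0.77 and 0.70. Mrpl32 and Psma2, of the proteasome, rose by 0.63 and 0.51, and Mrpl18 and Tcp1, of the cytosolic chaperonin, by 0.84 and 0.79. In contrast, Mrpl50 rose by 1.02 while Zfp189, 93 bases away, gave -0.12 (adjusted p = 0.352). Mrpl49 gave 0.16 and was not called, while Fau, which encodes a cytosolic ribosomal protein 192 bases away, fell by 0.65 (SE 0.10, adjusted p = 0.0104). Over the 22 tested neighbours that are not Mrp genes, 4 rose and 1 fell, where 9.02% of all genes were called higher and 7.44% lower. Their median was 0.20, beside -0.12 for all genes. The 26 members of these pairs had a median of 0.46, and 13 were called. That is close to all members, with a median of 0.46 and 37 of 77 called.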

How the data were processed

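Values were analysed as deposited: log2 expression per row of an Affymetrix mouse ST 1.0 array, which the authors had already summarised. The tools listed in the submitters' processing notes are oligo and limma, with no version. How background was corrected and values normalized, and the genome build, are not given in the sources used here. Rows with exactly 1 gene symbol in the platform annotation were kept (21542 of 24743), while 1522 with several symbols and 1679 with none were left out. All 77 Entrez identifiers of the Mrp genes matched the RefSeq table, and 0 symbols changed. The table holds no detection p-values, and the number of arrays limits the precision.

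A mean for each of the 3 groups was fitted to all 6 arrays with limma 3.58.1 in R 4.3.3 (lmFit, contrasts, eBayes), with 3 residual and 4.17 prior degrees of freedom. Tests were two-sided, with Benjamini-Hochberg adjustment over all 21542 rows of a comparison, and a gene was called at an adjusted p below 0.05. Counts over all genes use the brightest row of each of 19818 genes. The scripts were tested on simulated data. Intervals are 95%.

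Members, gene lists and motifs were chosen with earlier results of these data known, so no list was tested as a set. The genes named are, per comparison and subunit, up to 5 largest called changes in each direction or, with none called, the 2 largest differences; members whose rows disagree; Mrps18a, Mrps18b, Mrps18c, Mrps30 and Mrps36; and the 2 largest called changes in each direction of each other list. Further genes were named after their values were seen. Alternatives covered scaling, moderation, array weights, filters, row choice, replicate blocks and leaving out each array.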

Additional observations from a re-analysis of the deposited data

How the results depend on the processing

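Leaving out 1 array at a time gave 0 to 45 members called higher in MYD88_L265P than in EV, with member medians from 0.44 to 0.52, where the remaining lone array is assumed to vary like the others; called lower were 0 to 1. In the same fits 0 to 3 were called higher in IKK_K171E than in EV, 0 to 2 in MYD88_L265P than in IKK_K171E, and large minus small for MYD88_L265P against EV ran from -0.062 to 0.022. Arrays carry numbers in both descriptions and titles, which disagree. Replicate differences of same-numbered arrays correlated at 0.21, 0.10 and 0.14, over only 2 numbers, so the numbers were not taken to pair samples. A replicate block by the descriptions gave 43 members higher in MYD88_L265P than in EV, 3 in IKK_K171E than in EV (Mrpl42, Mrps18c and Mrps22) and 2 in MYD88_L265P than in IKK_K171E, where 19.2%, 2.91% and 2.31% of all rows were called in either direction. In a block by the titles, EV replicate 1 shared its number with no other array, so comparisons with EV rested on EV replicate 2 alone. The differences of IKK_K171E from EV were then 0.74 for Mrpl13, 0.75 for Mrps18c and 0.89 for Mrps22. Mrpl48 gave -0.645 in MYD88_L265P against EV. For MYD88_L265P against IKK_K171E, with 2 arrays in each group, the block by the titles gave 5 members higher, where 5.81% of all rows were called. For IKK_K171E against EV the adjusted p (limma) under the block by the descriptions was 0.0116 for Mrps22 and 0.0196 for Mrps18c. Members called lower in MYD88_L265P than in EV numbered 2 after quantile normalization (Mrpl48 and Mrps16) and 1 with array weights (Mrpl48). Without the dimmest 25% of rows 1 member was higher in IKK_K171E than in EV (Mrps21), and fitting only the 2 groups compared gave 2 higher in MYD88_L265P than in IKK_K171E. Large minus small was 0.020 by structure and -0.015 after quantile normalization. With arrays set to a common median, 46 members were higher in MYD88_L265P than in EV. Taking the dimmest row of a gene, an alternative chosen after seeing the data, turned Mrpl47 for MYD88_L265P against IKK_K171E to -0.063. Signal over background could not be assessed.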
